A study of Mus musculus with 6 samples.

Results

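The 9 genes described here encode parts of the TGF-beta pathway: the ligands Tgfb1, Tgfb2 and Tgfb3, the activin subunit Inhba, the receptors Tgfbr1 and Tgfbr2, the extracellular regulators Ltbp1 and Thbs1, and the feedback inhibitor Smad7. They were chosen by symbol, and all 9 had a row among the 23508 genes of the count table. RNA was sequenced from 6 tumors grown from 4T1, a mouse mammary carcinoma line that serves in studies of triple-negative disease. In 3 tumors RNA was taken on the day of the first recorded peak of neural activity (with peak), and in 3 it was taken earlier (before peak). No genotype, host strain, tumor age or treatment is stated for either group, 4T1 is a single cell line, and collection day and peak cannot be told apart.

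TGF-beta is made as a latent complex in which a propeptide shields the growth factor, and latent TGF-beta binding proteins tether that complex to the extracellular matrix. Once released, the ligand brings a type II receptor together with a type I receptor, which phosphorylates Smad2 and Smad3 so that, with Smad4, they enter the nucleus and act on target genes. In tumors the pathway is known for growth arrest of epithelial cells, for matrix production by fibroblasts and for dampening immune cells.

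None of the 9 genes passed the edgeR quasi-likelihood test between with-peak and before-peak tumors after Benjamini-Hochberg adjustment over the 16755 genes tested. The same test called 0 of 16755 genes (0%), limma-voom likewise called 0, and edgeR gave 1592 genes (9.50%) an unadjusted p under 0.05. By DESeq2, 266 of the 16388 genes with an adjusted p were called (1.62%), 242 of them higher with peak (1.48%), and 0 of the 9 genes were. The values of the 9 genes that stood furthest from the spread between tumors were those of Smad7 and Tgfbr1, with log2 fold changes of -0.34 (SE 0.12) and -0.37 (SE 0.15). Counts ran from 10591067 to 14549357 per tumor, and the 9 genes held 61 to 6361 counts each per tumor. Levels are given as CPM, the usual scaling of counts by library size, here with TMM factors. Each log2 fold change divides with-peak by before-peak tumors. Where a standard error (SE) or a 95% interval stands beside it, that comes from the same fit. Nothing in the labels says that the tumors came from separate animals, so a p-value here reflects just how these 6 libraries scatter, which may be technical.

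**Figure D1:**
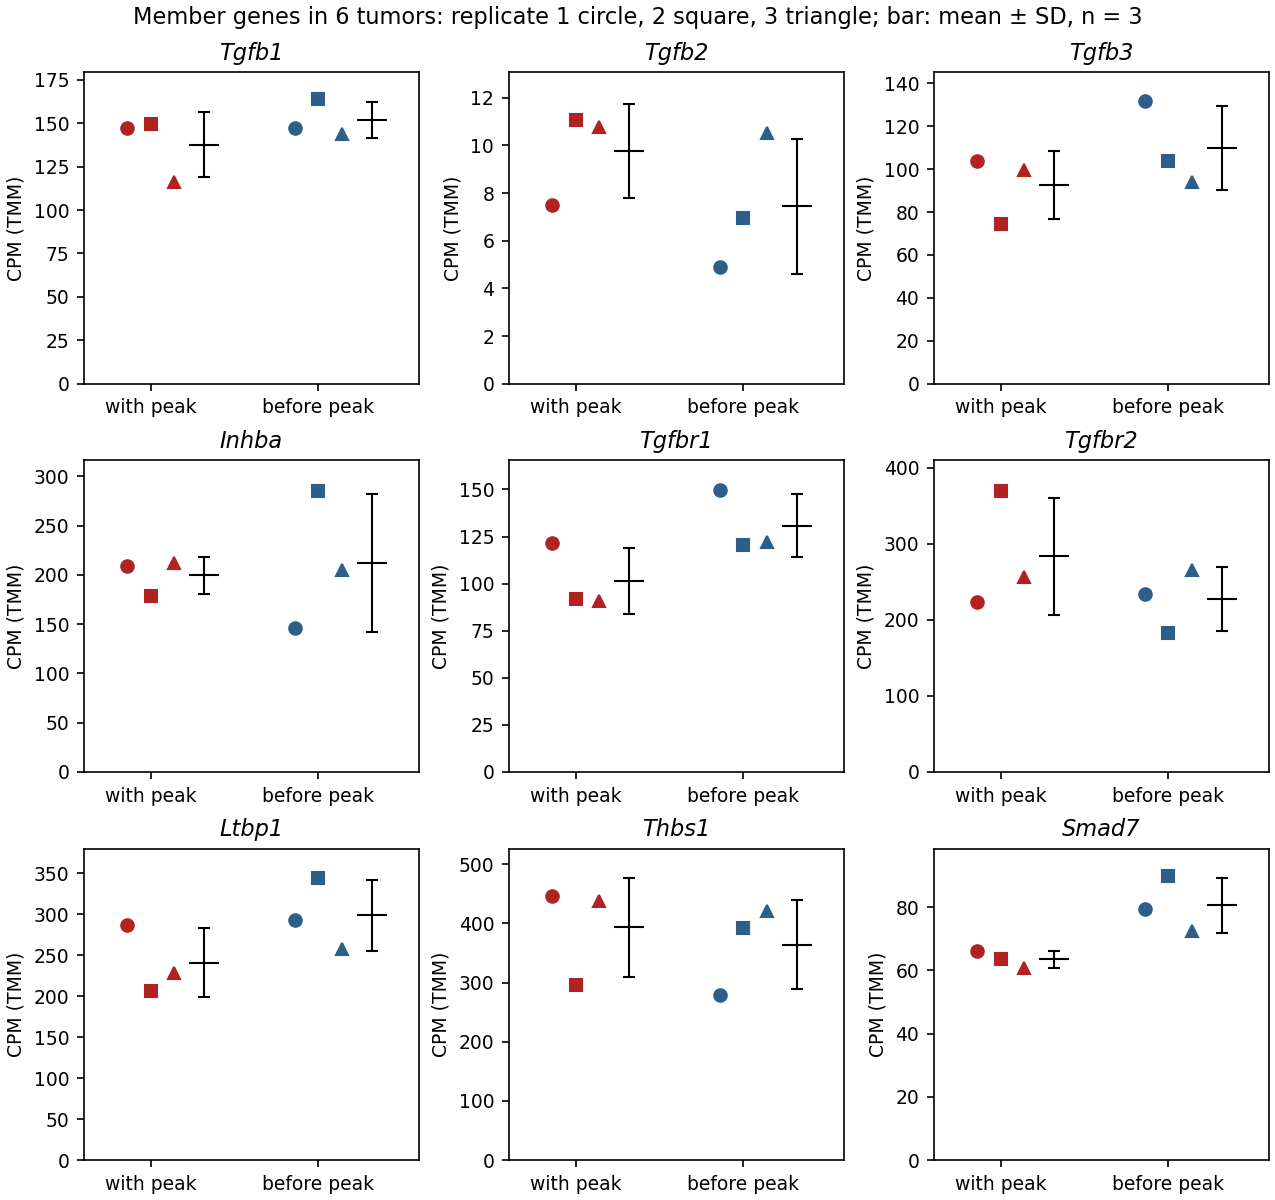
TMM-scaled CPM (vertical axes, from 0) of the 9 genes in the 3 with-peak tumors (left, red) and the 3 before-peak tumors (right, blue), with mean ± SD. Smad7 is the gene whose groups do not overlap: 60.6 to 66.1 CPM with peak and 72.4 to 89.7 CPM before peak.

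The ligands were expressed at unlike levels. As RPKM, which is CPM divided by exon length in kilobases, Tgfb1 was at 27.3 ± 3.70 with peak and 30.1 ± 2.08 before peak, and Tgfb3 at 27.3 ± 4.70 with peak and 32.5 ± 5.72 before peak (SD, n = 3 each). Tgfb2 was at 1.69 ± 0.340 RPKM with peak and 1.29 ± 0.489 RPKM before peak, below each of the other 8 genes in every tumor. The 3 ligands are paralogs, so their coding sequences were compared for stretches long enough to let a read fall on the wrong gene. The longest run shared by Tgfb1 and Tgfb3 was 15 bases, in exon 7 of both genes (chr7:25704889-25704903, plus strand, and chr12:86057819-86057833, minus strand). Tgfb2 and Tgfb3 also shared at most 15 bases, in exon 1 of both (chr1:186704614-186704628 and chr12:86077763-86077777, both minus strand), and Tgfb1 and Tgfb2 at most 10. Only exact runs in coding sequence were compared, and sharing through untranslated regions or with mismatches was not examined. The 2 longer runs are given 5′ to 3′ from GENCODE M21 transcripts.
Tgfb1 and Tgfb3: cccaaggtggagcag
Tgfb2 and Tgfb3: gctcaccagcccccc

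Tgfb1, the ligand of leukocytes, platelets and carcinoma cells (ENSMUSG00000002603, mm10 chromosome 7, 25687002 to 25705077), had 147, 149.7 and 116 CPM in with-peak tumors 1, 2 and 3, against 147, 164 and 144 CPM in before-peak tumors 1, 2 and 3. The groups overlap: with-peak tumor 3 is the lowest of all, while with-peak tumor 2 lies above before-peak tumors 1 and 3. Its log2 fold change was -0.14 with a 95% interval from -0.43 to 0.15 (edgeR adjusted p = 0.770), and it was -0.03 without with-peak tumor 3 and -0.08 without before-peak tumor 2. Tgfb3, a ligand of mesenchymal cells (ENSMUSG00000021253, chromosome 12, 86056745 to 86079041), had 104, 74.3 and 99.3 CPM with peak, against 131, 104 and 94.2 CPM before peak. The groups overlap, with before-peak tumor 1 highest and with-peak tumor 2 lowest. The log2 fold change of Tgfb3 was -0.25 (95% interval -0.62 to 0.13, edgeR adjusted p = 0.689), and it was -0.10 without before-peak tumor 1 and -0.11 without with-peak tumor 2.

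Tgfb2 (ENSMUSG00000039239, chromosome 1, 186622792 to 186705989), known for its part in heart and eye development, rests on few counts, from 61 to 141 per tumor. It had 7.50, 11.0 and 10.8 CPM in with-peak tumors 1, 2 and 3, against 4.90, 6.97 and 10.5 CPM in before-peak tumors 1, 2 and 3. Before-peak tumor 3 falls among the with-peak tumors, and the log2 fold change of 0.39 has the widest interval of the 9 genes, from -0.32 to 1.10 (edgeR adjusted p = 0.741). Without before-peak tumor 3 it was 0.71. Inhba encodes the subunit whose dimer is activin A, a ligand of the same family that signals through its own receptors to Smad2 and Smad3 (ENSMUSG00000041324, chromosome 13, 16011851 to 16031621). It had 209, 178 and 212 CPM with peak, against 146, 286 and 205 CPM before peak. The before-peak tumors spread on both sides of all with-peak tumors. The log2 fold change of Inhba was -0.09 (95% interval -0.60 to 0.43, edgeR adjusted p = 0.925), and its sign turned to 0.18 without before-peak tumor 2.

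The windows around the annotated starts of the most and the least abundant TGF-beta isoform gene with an entry, from 250 bases before to 50 bases after the start, are shown because these genes differ so much in level. They are RefSeq sequences on GRCm38.p6, 5′ to 3′ on the strand of the gene: Tgfb1 at chr7:25686752-25687051 (plus strand) and Tgfb2 at chr1:186705940-186706239 (minus strand). Capitals mark matches to CAGAC, the short Smad-binding box, read on both strands.
Tgfb1: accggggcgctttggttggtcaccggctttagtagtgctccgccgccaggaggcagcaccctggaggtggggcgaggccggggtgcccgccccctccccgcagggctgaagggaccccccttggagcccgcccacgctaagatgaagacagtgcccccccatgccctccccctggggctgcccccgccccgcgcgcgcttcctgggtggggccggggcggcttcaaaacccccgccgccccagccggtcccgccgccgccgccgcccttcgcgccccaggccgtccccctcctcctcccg
Tgfb2: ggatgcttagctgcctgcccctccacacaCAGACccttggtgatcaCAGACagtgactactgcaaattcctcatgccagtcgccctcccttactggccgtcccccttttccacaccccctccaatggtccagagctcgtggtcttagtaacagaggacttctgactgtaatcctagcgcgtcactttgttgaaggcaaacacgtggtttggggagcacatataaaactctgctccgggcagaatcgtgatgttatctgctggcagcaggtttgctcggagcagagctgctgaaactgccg
The Tgfb1 window is 77.0% G and C and the Tgfb2 window 54.3%, where the median over 32851 such windows was 52.7%. CAGAC occurs at 2 places in the Tgfb2 window and is not among the letters of the Tgfb1 window. Of all windows, 49.6% hold it, so that a match is common.

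Of the receptors, Tgfbr1 had a lower mean with peak and Tgfbr2 a higher one. Tgfbr1 has 2 start sites in the RefSeq table, whose transcripts a count per gene cannot tell apart. Tgfbr1, the type I receptor kinase (ENSMUSG00000007613, chromosome 4, 47353222 to 47414931), had 121, 91.8 and 91.0 CPM in with-peak tumors 1, 2 and 3, against 149.8, 120.3 and 122 CPM in before-peak tumors 1, 2 and 3. The groups overlap only in that with-peak tumor 1 lay just above before-peak tumor 2. The means were 101 ± 17.4 CPM with peak and 131 ± 16.6 CPM before peak (SD, n = 3 each), a log2 fold change of -0.37 with a 95% interval from -0.70 to -0.03 (edgeR adjusted p = 0.498). With Smad7, Tgfbr1 makes 2 of the 9 genes with an unadjusted p under 0.05, both lower with peak, where 3.38% of all genes tested were lower and 9.50% passed in either direction. That count was 3 without with-peak tumor 1, 0 without with-peak tumor 3, 1 without with-peak tumor 2 or before-peak tumor 1 or 2, and 4 without before-peak tumor 3. These 4 were Tgfbr1, Smad7 and Ltbp1, lower with peak, and Tgfb2, higher with peak. Over all genes, the fits lacking 1 tumor gave 686 to 1268 higher and 341 to 620 lower, of 17153 to 17371 tested.

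Tgfbr2, the type II receptor that binds the ligand first (ENSMUSG00000032440, chromosome 9, 116084293 to 116175360), had 224, 370.2 and 257 CPM in with-peak tumors 1, 2 and 3, against 234, 182 and 266 CPM in before-peak tumors 1, 2 and 3. With-peak tumor 2 stands above the other 5 tumors, among which the groups are mixed. The log2 fold change was 0.32 (95% interval -0.16 to 0.80, edgeR adjusted p = 0.682), and 0.08 without with-peak tumor 2. That tumor also had the highest sum of the 10 fibroblast markers, 1872 CPM, against 795 and 984 CPM in with-peak tumors 1 and 3 and 837 to 1107 CPM in before-peak tumors. The same tumor was highest for the 8 endothelial markers, at 579 CPM, where with-peak tumors 1 and 3 had 394 and 255 CPM and before-peak tumors 279 to 394 CPM. No fibroblast or endothelial marker was at 0 in any tumor. By log2 fold change 8 of the 10 fibroblast markers were positive and 2 negative, with a median of 0.62. By edgeR, 2 fibroblast markers had an unadjusted p under 0.05, both higher with peak. All 8 endothelial markers were positive, with a median of 0.32, and 0 had such a p. Over all genes tested 47.7% were positive, and 6.12% were higher by that p. Macrophage, pericyte and platelet marker sums were also highest in with-peak tumor 2, at 5366, 373 and 142 CPM. Its carcinoma marker sum, 3088 CPM, was the lowest of all tumors. The part of these cells in the Tgfbr2 values was not tested. In bulk tissue, fewer cells of a type and less RNA per cell cannot be told apart.

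**Figure D2:**
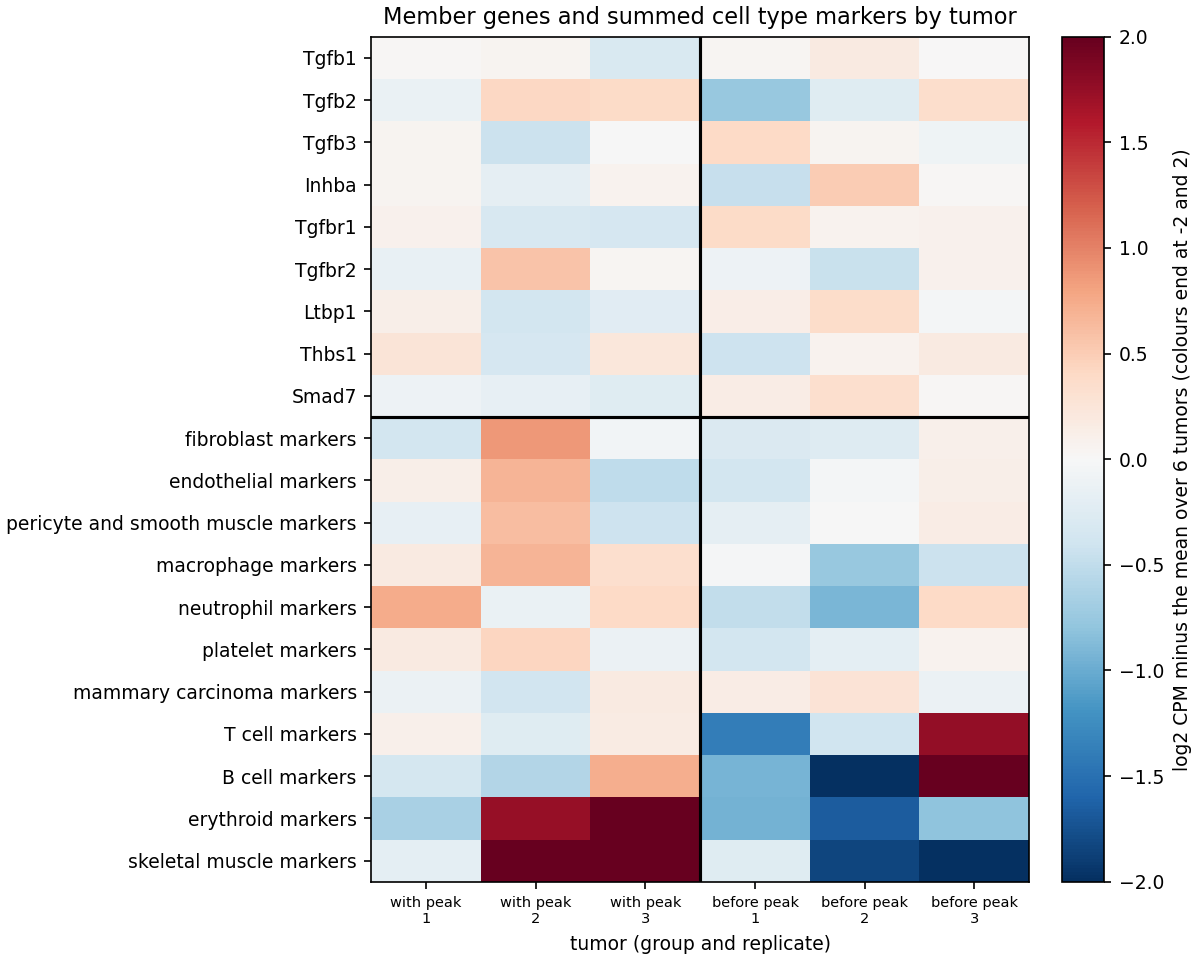
Log2 CPM of the 9 genes (upper rows) and of the summed markers of 11 cell types (lower rows) in each tumor, as the difference from the mean over the 6 tumors (colour). With-peak tumor 2 (second column) is highest for Tgfbr2 and for fibroblast, endothelial, macrophage, pericyte and platelet markers. Before-peak tumor 3 (last column) is high for B and T cell markers.

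Outside the cell, Ltbp1 encodes the latent TGF-beta binding protein that anchors the latent ligand to matrix (ENSMUSG00000001870, chromosome 17, 75005568 to 75392512). It had 288, 207 and 229 CPM in with-peak tumors 1, 2 and 3, against 293, 345 and 258 CPM in before-peak tumors 1, 2 and 3. With-peak tumors 2 and 3 lay below all before-peak tumors, while with-peak tumor 1 lay within their range. The log2 fold change was -0.31 (95% interval -0.66 to 0.04, edgeR adjusted p = 0.577), and it was -0.19 without before-peak tumor 2. Ltbp1 has 2 start sites in the RefSeq table, and a count per gene cannot tell their transcripts apart. Both windows are shown for that reason, at chr17:75005279-75005578 (upstream) and chr17:75178531-75178830 (downstream), plus strand, GRCm38.p6, with CAGAC or its reverse complement GTCTG and the cyclic AMP response element TGACGTCA in capitals.
Ltbp1 upstream start: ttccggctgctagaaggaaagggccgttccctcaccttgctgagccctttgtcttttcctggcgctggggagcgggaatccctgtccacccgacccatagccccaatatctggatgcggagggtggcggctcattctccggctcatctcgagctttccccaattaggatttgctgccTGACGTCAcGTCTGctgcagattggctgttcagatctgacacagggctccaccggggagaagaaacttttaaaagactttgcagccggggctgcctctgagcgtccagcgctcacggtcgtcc
Ltbp1 downstream start: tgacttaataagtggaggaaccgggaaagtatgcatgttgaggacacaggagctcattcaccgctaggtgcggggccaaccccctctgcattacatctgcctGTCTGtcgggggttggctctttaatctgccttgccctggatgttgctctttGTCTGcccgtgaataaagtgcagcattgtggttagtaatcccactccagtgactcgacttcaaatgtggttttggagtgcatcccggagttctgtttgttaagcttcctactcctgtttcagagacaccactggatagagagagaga
TGACGTCA, the site known to be bound by the factor CREB, occurs in the upstream window and in no other of the 8 windows found for 6 of the 9 genes. Over all 32851 windows, 1.79% hold it. GTCTAGAC, the palindromic Smad element, occurs in 0 of the 8 windows and in 0.213% of all windows, and TGAGTCA, the AP-1 site, in 0 of the 8 and in 5.2% of all. None of these motifs contains another, both strands were read, and a match describes the letters and no binding.

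Thbs1, thrombospondin 1, is a matrix glycoprotein that can release TGF-beta from its latent complex and is abundant in platelets (ENSMUSG00000040152, chromosome 2, 118111876 to 118127133). It had 446, 296 and 438 CPM in with-peak tumors 1, 2 and 3, against 279, 392 and 421 CPM in before-peak tumors 1, 2 and 3. Each group holds one low tumor and 2 high ones. The log2 fold change was 0.11 (95% interval -0.35 to 0.57, edgeR adjusted p = 0.891), with a value of -0.05 without before-peak tumor 1. Platelet markers, of which 7 of 8 had a row, summed to 97.3 to 142 CPM with peak and 81.2 to 111 CPM before peak. Of these 7, 2 had 0 counts in some tumors. Gp9, a platelet receptor subunit, was among them, with 0 counts in all 3 before-peak tumors and 4 to 10 with peak, too few to test. The platelet sums overlapped. Of the 4 markers with enough counts to test, 3 were positive and 1 negative, and edgeR gave 0 an unadjusted p under 0.05. With-peak tumor 2 had the highest platelet sum and the lowest Thbs1 of the with-peak tumors, while the before-peak tumors had platelet sums of 81.2, 91.6 and 111 CPM, in the same order as their Thbs1 values. The part of platelets in the Thbs1 values was not tested.

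The gene with the smallest p among the 9 was Smad7, which encodes an inhibitory Smad that blocks the type I receptor and is itself induced by the pathway (ENSMUSG00000025880, mm10 chromosome 18, 75367529 to 75395935). It had 66.1, 63.6 and 60.6 CPM in with-peak tumors 1, 2 and 3, against 79.5, 89.7 and 72.4 CPM in before-peak tumors 1, 2 and 3. Every with-peak tumor lay below every before-peak tumor. The means were 63.5 ± 2.76 CPM with peak and 80.5 ± 8.71 CPM before peak (SD, n = 3 each), a log2 fold change of -0.34 with a 95% interval from -0.61 to -0.08 (edgeR adjusted p = 0.408). The exact two-sided permutation test over the 6 tumors gave p = 0.1, the smallest that 3 against 3 tumors allow, and p from 0.2 to 1 for the other 8 genes. Of the 9 genes, 1 had groups that did not overlap, with the with-peak tumors lower. Over all genes tested, 7.38% did so in that direction and 15.5% in either direction.

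**Figure D3:**
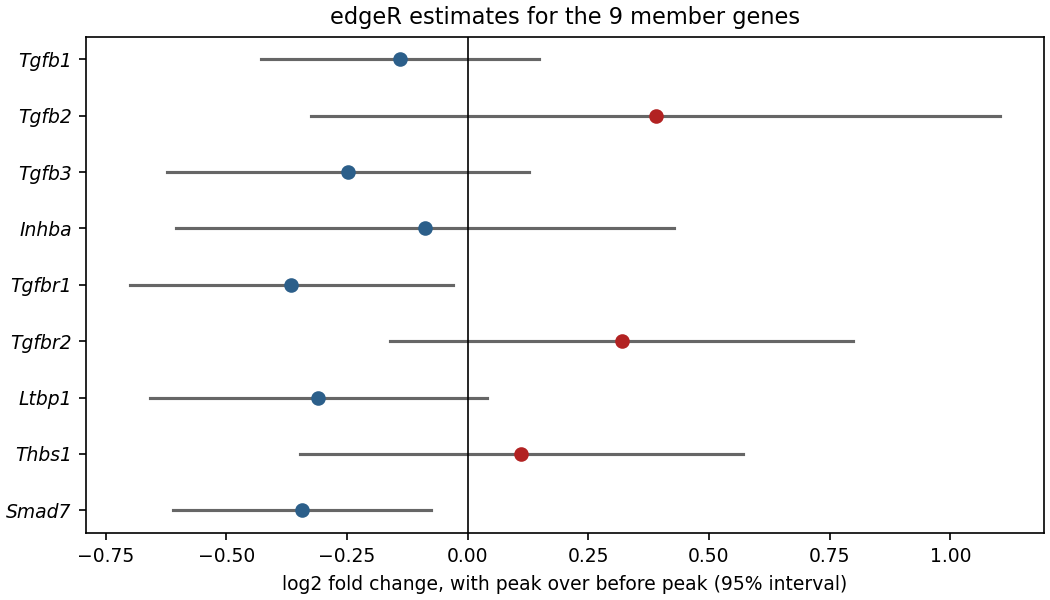
Log2 fold change of with-peak over before-peak tumors (horizontal axis) with its 95% interval for the 9 genes, by role. Points are red above 0 and blue below. Intervals of 7 genes include 0; those of Tgfbr1 and Smad7 lie below it before any adjustment over genes.

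Ranked by RPKM over the 6 tumors, Thbs1 came first at 62.4 ± 12.0, above Inhba in all 6 tumors with no overlap in range (SD, n = 6). Inhba at 32.2 ± 7.24, Tgfbr2 at 31.2 ± 7.74, Tgfb3 at 29.9 ± 5.46 and Tgfb1 at 28.7 ± 3.09 followed, and each of these exceeded the next in 3 of 6 tumors apart from Tgfb1. The order of these 4 is within their spread. Ltbp1, at 25.2 ± 4.63 RPKM, lay below Tgfb1 in all 6 tumors although their ranges overlap. Tgfbr1 at 17.8 ± 3.38 RPKM was below Ltbp1 in all 6 tumors and above Smad7, at 15.9 ± 2.43 RPKM, in 4 of 6. Tgfb2 came last at 1.49 ± 0.436 RPKM. RPKM uses the union of annotated exons as length, which understates genes whose tumors express a shorter transcript.

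**Figure D4:**
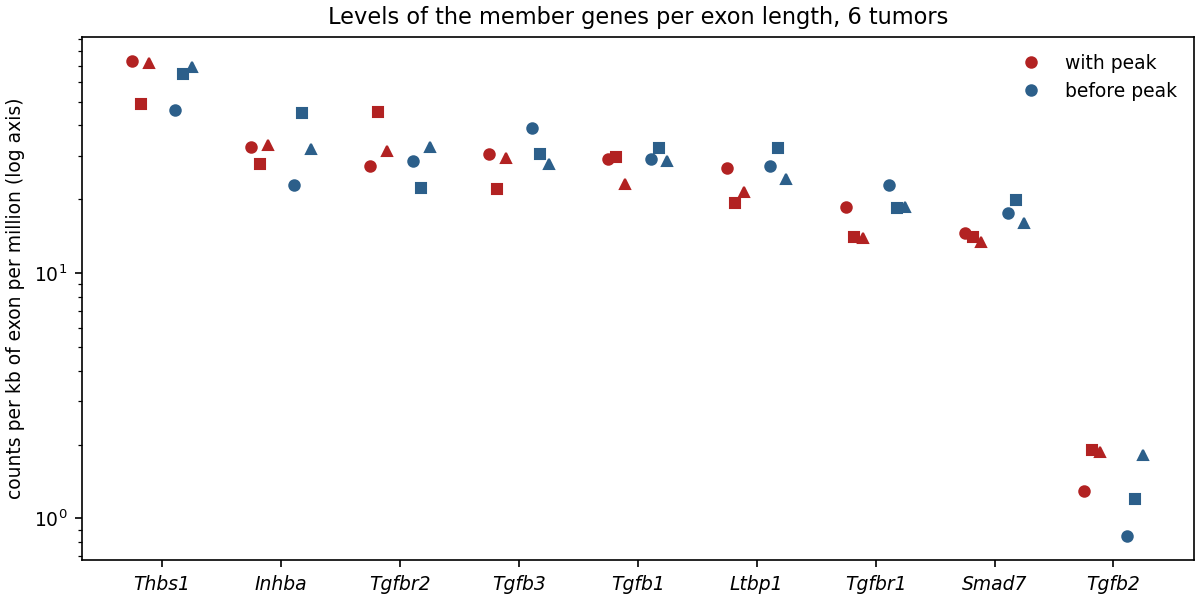
Levels of the 9 genes in RPKM (vertical log axis), ordered by their mean over 6 tumors, with-peak tumors in red to the left and before-peak tumors in blue; circles, squares and triangles are replicates 1, 2 and 3. Thbs1 lies above and Tgfb2 below the other 7 genes in every tumor.

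The gene counts carry no strand, so reads of a gene and of an overlapping gene on the other strand cannot be told apart. Tgfb3 shares 257 exon bases with Gm48008, which had 152 to 329 counts per tumor, and 163 with Gm37804, which had 157 to 237. Thbs1 shares 208 exon bases with Gm29233, at 230 to 421 counts, and Tgfb2 shares 124 with Gm29491, at 0 to 8 counts. The values of these 3 genes are uncertain to that extent. Among the further pathway genes named here, Acvrl1, Bmp5, Ltbp2, Junb, Bhlhe40, Ccn2, Cdkn1a and Lox also share exon bases with a gene on the other strand.

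The rest of the pathway was described with 91 further genes in 6 lists, of which 84 were tested. Of these 84, edgeR called 0 higher and 0 lower after adjustment over all genes, DESeq2 called 0, and 10 had an unadjusted p under 0.05, 4 higher with peak and 6 lower. Over all genes tested these shares were 9.50%, 6.12% and 3.38%. Groups did not overlap for 4 of the 84 with the with-peak tumors higher and for 6 with them lower. Over all genes tested, 8.13% and 7.38% did so, 15.5% in either direction. The median log2 fold change was -0.14 over the 9 genes, with 3 positive and 6 negative, and 0.01 over the 84, with 43 positive and 41 negative, beside -0.02 over all genes tested, of which 47.7% were positive.

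**Figure D5:**
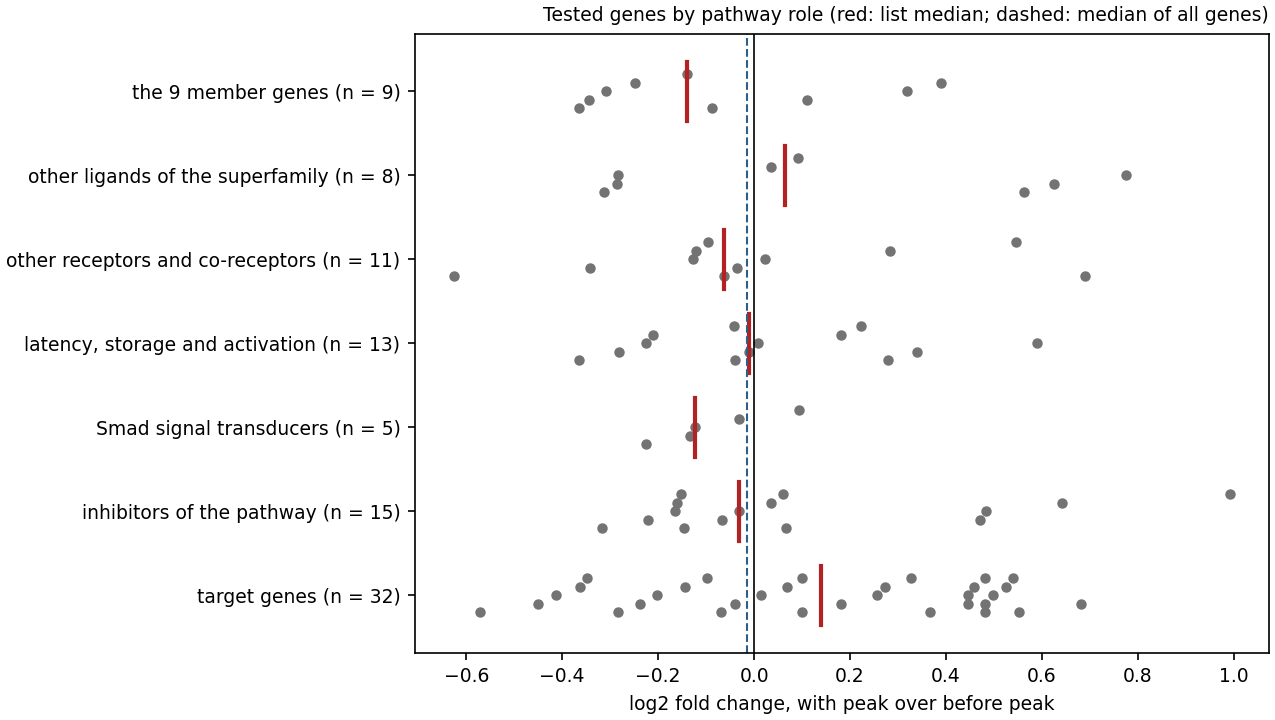
Log2 fold change of each tested gene (grey points, horizontal axis) by pathway role, with the list median in red and the median of all genes tested as a dashed line. Medians lie between -0.14 for the 9 genes and 0.14 for the target genes.

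The list of other ligands of the superfamily also holds Bmp1, which encodes a protease and no ligand. In that list 8 of 13 genes were tested, with 5 positive and a median of 0.06. That median was 0.44 without before-peak tumor 2 and -0.02 without before-peak tumor 1. Inha, Nodal, Mstn, Gdf15 and Bmp5 had too few counts, as had Smad9 and Nog in the lists of Smads and inhibitors. Bmp1, a procollagen protease that carries a BMP name, had 497, 485 and 554 CPM in with-peak tumors, against 696, 592 and 581 CPM in before-peak tumors (log2 fold change -0.28, SE 0.12, edgeR adjusted p = 0.498). Its groups did not overlap. Bmp2, a ligand of the BMP branch, had 9.26, 11.4 and 4.56 CPM with peak, against 4.41, 5.87 and 4.50 CPM before peak (log2 fold change 0.78, SE 0.36, edgeR adjusted p = 0.533).

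All 11 further receptors and co-receptors were tested, with 4 positive and a median of -0.06. Acvrl1, the type I receptor ALK1 of endothelial cells, had 41.6, 44.0 and 23.2 CPM in with-peak tumors 1, 2 and 3, against 18.8, 22.0 and 26.8 CPM in before-peak tumors (log2 fold change 0.69, SE 0.25, edgeR adjusted p = 0.446). With-peak tumors 1 and 2 stand above the rest, and endothelial marker sums were 394, 579 and 255 CPM in with-peak tumors 1, 2 and 3, against 279, 352 and 394 CPM in before-peak tumors. Their part in the Acvrl1 values was not tested. Acvr2b, an activin receptor, had 5.47, 3.60 and 5.53 CPM with peak, all below the 7.30, 8.06 and 7.17 CPM before peak (log2 fold change -0.63, SE 0.28, edgeR adjusted p = 0.523).

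Of the 13 genes of latency, storage and activation, all tested, 6 were positive and the median was -0.01. Ltbp2, a relative of Ltbp1 that binds to elastic fibers, had 294, 218 and 228 CPM in with-peak tumors 1, 2 and 3, against 301, 360.4 and 292 CPM in before-peak tumors (log2 fold change -0.37, SE 0.14, edgeR adjusted p = 0.478). As for Ltbp1, with-peak tumors 2 and 3 were below all before-peak tumors and with-peak tumor 1 was not. Thbs2, thrombospondin 2, had 389, 484 and 268 CPM with peak, against 216, 208 and 334 CPM before peak (log2 fold change 0.59, SE 0.26, edgeR adjusted p = 0.537). Of 5 tested Smad transducers 1 was positive, with a median of -0.12, which was -0.02 without with-peak tumor 2 and -0.01 without before-peak tumor 2. Smad5, a Smad of the BMP branch, had 92.1, 86.0 and 92.9 CPM with peak, all below the 116, 102 and 98.7 CPM before peak (log2 fold change -0.23, SE 0.11, edgeR adjusted p = 0.568). Smad2, of the TGF-beta branch, had 49.9, 46.5 and 48.6 CPM with peak, against 48.8, 51.8 and 57.5 CPM before peak (log2 fold change -0.12, edgeR adjusted p = 0.778).

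Of the 16 inhibitors 15 were tested, with 7 positive and a median of -0.03. The inhibitors with the smallest p were biglycan and decorin, matrix proteoglycans of fibroblasts that can bind TGF-beta. Bgn had 607, 896 and 467 CPM in with-peak tumors 1, 2 and 3, against 328, 437 and 498 CPM in before-peak tumors (log2 fold change 0.64, SE 0.26, edgeR adjusted p = 0.511). Dcn had 198, 471 and 249 CPM with peak, against 138, 107 and 216 CPM before peak (log2 fold change 0.99, SE 0.41, edgeR adjusted p = 0.531). Both were highest in with-peak tumor 2, the tumor with the highest fibroblast marker sum given above.

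The 32 target genes were all tested, with 20 positive, 12 negative and a median of 0.14, which was 0.05 without with-peak tumor 2 and 0.29 without before-peak tumor 3. By unadjusted p under 0.05, 2 were higher with peak, Id2 and Nox4, and 3 lower, Junb, Pthlh and Bhlhe40, where over all genes tested 6.12% were higher and 3.38% lower. Id2, an inhibitor of basic helix-loop-helix factors, had 46.5, 45.2 and 36.5 CPM in with-peak tumors, all above the 28.3, 30.1 and 35.7 CPM in before-peak tumors (log2 fold change 0.45, SE 0.15, edgeR adjusted p = 0.398). Nox4, an NADPH oxidase of myofibroblasts, had 8.56, 11.0 and 7.28 CPM with peak, all above the 5.22, 5.64 and 5.92 CPM before peak (log2 fold change 0.68, SE 0.26, edgeR adjusted p = 0.465). Junb, an AP-1 subunit induced early by TGF-beta, had 378, 313 and 294 CPM with peak, all below the 391, 494 and 382 CPM before peak (log2 fold change -0.36, SE 0.14, edgeR adjusted p = 0.474). Pthlh, the parathyroid hormone-related protein of bone metastasis, had 32.3, 19.0 and 36.0 CPM with peak, against 47.7, 46.7 and 35.2 CPM before peak (log2 fold change -0.57, SE 0.24, edgeR adjusted p = 0.510). Here with-peak tumor 3 lay just above before-peak tumor 3. Bhlhe40, a transcription factor of hypoxia and the clock, named after its values were seen, had 175, 160.3 and 149 CPM with peak, against 163, 270.0 and 212 CPM before peak (log2 fold change -0.41).

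The targets did not move as 1 block: 4 were higher in every with-peak tumor (8.13% of all genes tested were) and 1 was lower. Beside Id2, Nox4 and Junb these were Ccn2 and Cdkn1a, named after their values were seen, with log2 fold changes of 0.33 and 0.26 (edgeR adjusted p = 0.591 and 0.546). The number of targets with an unadjusted p under 0.05 depended on the tumors: without before-peak tumor 3 it was 11, with 9 higher with peak and 2 lower, without with-peak tumor 2 it was 1, without before-peak tumor 2 it was 2, and without with-peak tumor 1 or before-peak tumor 1 it was 3, and without with-peak tumor 3 it was 6. The same fits gave, over all genes, 1268 higher and 620 lower of 17287 without before-peak tumor 3, and 686 higher and 447 lower of 17153 without with-peak tumor 2. Without with-peak tumor 1 they gave 1105 and 580 of 17247, and without with-peak tumor 3 1003 and 589 of 17258. Without before-peak tumor 1 they gave 899 and 489 of 17371, and without before-peak tumor 2 925 and 341 of 17215. Among the 9 that were higher without before-peak tumor 3 were Postn, Lox, Col1a1, Col1a2 and Col3a1, which encode matrix proteins or, for Lox, an enzyme that crosslinks them. Before-peak tumor 3 had the highest B cell marker sum, 464 CPM against 8.22 to 69.4 CPM in the other 5 tumors, and the highest T cell sum, 203 CPM against 23.2 to 67.8 CPM. Its fibroblast sum, 1107 CPM, was above the 837 and 862 CPM of before-peak tumors 1 and 2. Its Postn, Col1a1, Col1a2 and Col3a1 values, 573, 3937, 2356 and 4588 CPM, were likewise the highest of the before-peak group. Postn, Lox, Col1a1, Col1a2 and Col3a1 were each highest in with-peak tumor 2, which also had the highest fibroblast marker sum, 1872 CPM. The part of these cells in the target gene values was not tested.

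As to the labelled tissue, all 8 carcinoma markers, among them Krt8, Krt18 and Epcam, had counts in every tumor. Their sum was 3088 to 4566 CPM with peak and 3723 to 4873 CPM before peak. By log2 fold change 7 of these 8 markers were lower with peak and 1 higher, with a median of -0.23. By edgeR 2 had an unadjusted p under 0.05, both lower, where 3.38% of all genes tested were. Groups did not overlap for 2, both lower, where 7.38% of all genes tested were. Macrophage markers, 12 of 12 with counts in every tumor, summed to 3794 to 5366 CPM with peak and 1982 to 3279.9 CPM before peak, without overlap. Skeletal muscle marker sums were 265, 1419 and 1457 CPM in with-peak tumors 1, 2 and 3 and 64.1 to 257 CPM before peak, and mitochondrial rRNA was at 603 to 667 CPM with peak and 311 to 442 CPM before peak. Their part in the values of the 9 genes was not tested. Neutrophil sums, 209 to 384 CPM with peak and 122 to 301 CPM before peak, and pericyte sums, 183 to 373 and 216 to 271 CPM, overlapped, while erythroid sums, 277 to 2154 CPM with peak and 138 to 251 CPM before peak, did not.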

How the data were processed

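RNA of 6 4T1 tumors, 3 with peak and 3 before peak, was isolated with Trizol from snap-frozen tissue, made into unstranded libraries after oligo(dT) selection and read from both ends, per the labels' protocols. The authors deposited raw counts per gene, whole numbers with 1 column per tumor and no normalization. FastQC and STAR with the mm10 build are named, per the submitters' processing notes. Which tool and annotation did the counting is not stated (not given in the sources). Of 23508 Ensembl identifiers, 23479 matched GENCODE M21 (GRCm38, the assembly of mm10), which gave symbols, coordinates and exon lengths.

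The test was edgeR 4.0.16 in R 4.3.3 (quasi-likelihood, robust, two-sided, TMM, no covariate) on the 16755 genes that filterByExpr retained at its settings of 10 counts and a total of 15; p-values were adjusted by Benjamini-Hochberg and called under 0.05. It was tested on simulated data. SE is the log2 fold change divided by the square root of F. Alternatives were RLE factors, library size alone, upper quartile scaling, other filters, DESeq2 1.42.0, limma-voom 3.58.1, a block for replicate number, and fits lacking single tumors. Between same-group libraries the chi-square over genes was 17.1 to 28.9 times its degrees of freedom, so none was a duplicate. The 9 genes, the lists and the tests were chosen with earlier results of these data known. From each list the text names the 2 genes with the smallest p (4 of the targets), and for each of the 9 genes the 2 closest in pattern; marker lists are given as sums. Promoter windows come from RefSeq (GRCm38.p6), which held 6 of the 9 genes. Values of 1 target gene are not reported here.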

Additional observations from a re-analysis of the deposited data

How the results depend on the processing

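For the 9 genes, 15 alternatives gave 135 log2 fold changes, of which 0 had an adjusted p under 0.05 and 2 changed sign: Inhba, 0.18 without before-peak replicate 2, and Thbs1, -0.05 without before-peak replicate 1. The lowest adjusted p was 0.29 for Smad7 and 0.312 for Tgfbr1. Smad7 ran from -0.42 to -0.26 and Tgfbr1 from -0.51 to -0.26. Of the 15 alternatives, 13 left Smad7 with an unadjusted p under 0.05 and 11 left Tgfbr1 so. Over the fits that leave out 1 tumor, Inhba ran from -0.30 to 0.18 and Thbs1 from -0.05 to 0.28. These fits gave 0 to 4 of the 9 genes past an unadjusted p of 0.05, and leaving out both tumors numbered 3 gave 1. Over all genes these fits gave 686 to 1268 higher and 341 to 620 lower, of 17153 to 17371 tested. Leaving out both tumors numbered 3 gave 1163 higher and 542 lower of 16890. With library size alone the median of all genes was -0.07, with 39.5% positive where TMM gave 47.7%, and the median of the 9 genes -0.20.

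Over all genes, where edgeR called 0, DESeq2 gave 242 higher and 24 lower. Without a filter on low counts 26 were higher and 3 lower, and with both tumors numbered 3 left out 4 higher and 0 lower; the cause was not tested. Leaving out 1 tumor gave 0 to 17 higher and 0 lower. The replicate block called 1 gene higher and 0 lower. The labels state no pairing, and deviations of same-numbered tumors correlated at -0.06, -0.10 and 0.03, with 0 of 3 with-peak tumors closest to their own number. Each group holds only 3 tumors. Tgfb2, at 61 to 141 counts, had the lowest counts of the 9 genes. The part of counting error in its spread was not tested.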

Other observations

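The ratio of the receptor transcripts can be read within each tumor, free of library scaling. This ratio in bulk tissue was chosen after its values were seen. Tgfbr2 over Tgfbr1, in RPKM, was 1.47, 3.22 and 2.25 in with-peak tumors 1, 2 and 3, against 1.24, 1.21 and 1.74 in before-peak tumors 1, 2 and 3. The groups overlap through with-peak tumor 1 and before-peak tumor 3. The difference of mean log2 ratios was 0.68 (exact two-sided permutation p = 0.2, where 0.1 is the smallest possible). As the ratio was picked from the same values, that p only describes them. With-peak tumor 2, with the highest ratio, also had the highest fibroblast, endothelial and macrophage marker sums. The part of these cells in the ratio was not tested.

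The genes closest in pattern to each of the 9 were taken by the smallest root mean square difference of z-scored log2 CPM over the 6 tumors, among genes with a mean of at least 5 CPM. Il23a, a cytokine subunit, lay closest to Tgfb3, at 0.04. Gm20416 and Tmx3 were closest to Tgfbr1, at 0.04 and 0.13. Rasa1 and Anapc4 were closest to Smad7, at 0.13 and 0.17, with log2 fold changes of -0.34 and -0.26. Gstm2 and Alas1 were closest to Tgfbr2, at 0.09 and 0.11. For Tgfb1 these were AC148016.1 and 2310030G06Rik, for Tgfb2 Slc16a6 and Asb5, and for Tgfb3 also Sh3rf1. Ckap2l and Usp25 were closest to Inhba, Fzr1 and Abl1 to Ltbp1, and Mxd1 and Fam160b2 to Thbs1, where the differences of 0.20 and 0.21 were the largest of those named. The list describes these 6 tumors and says nothing of shared control.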
